A study of Mus musculus with 6 samples.

Results

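The B and T lymphocyte identity genes are 8 genes whose RNA marks lymphocytes in a mixed tissue, 4 of B cells (Cd79a, Cd79b, Ms4a1, and Cr2) and 4 of T cells (Cd3e, Cd3g, Cd4, and Cd8a). They were selected by name, not by their values, although earlier results of these data were known. Each matched 1 of the 55491 genes in the table by its symbol. All 8 were counted in every library, and they are among the 32664 genes tested. The tissue was IWAT (inguinal white adipose tissue), the subcutaneous fat pad of the groin, from male C57BL/6J mice at 4 weeks of age. RNA of 3 Ebf2+/+ mice and 3 Ebf2 E165X/+ mice was sequenced in bulk, with 1 library per mouse, and the labels name no further treatment of either group. Ebf2 E165X/+ mice carry 1 knock-in allele with a premature stop codon in Ebf2, which encodes a transcription factor of brown and beige adipocytes. The allele is in the germ line, so that it is present in the lymphocytes and stroma of the tissue as well as in its adipocytes. It was made with CRISPR/Cas9 in B6SJLF1 hybrid zygotes, and founders were bred to C57BL/6J. The number of generations of breeding behind these 6 mice is not given in the sources used here. Nothing in the labels states whether mice were littermates, so that differences between litters cannot be told apart from those of genotype. P values weigh the genotype difference against the spread between mice of the same genotype.

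B cells recognize antigen through a membrane immunoglobulin that signals through its partner chains, and T cells through a receptor that signals through the CD3 chains. The inguinal lymph node of the mouse lies within the inguinal fat pad, and follicles of B cells and zones of T cells make up most of a node. Whether the node was removed before RNA was extracted is not given in the sources used here. The comparison addresses how much RNA of lymphocytes, and of a node, each library held, and whether that amount differed between Ebf2+/+ and Ebf2 E165X/+ IWAT.

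Total counts ran from 106820505 to 135039488 per library. Levels are given as CPM, which are counts put on a common scale by dividing by the library size after TMM scaling. Genotype effects were fitted in edgeR (quasi-likelihood test) across all 32664 genes. A gene counts as called where its linear fold change exceeds 1.5 and its adjusted P is under 0.05. A positive log2 fold change, given with its standard error (SE), means a higher level in Ebf2 E165X/+ libraries. Ebf2 itself was lower in all 3 Ebf2 E165X/+ libraries, by a log2 fold change of −0.81 (SE 0.076, edgeR adjusted P = 0.0596), in the direction of its labels. Its adjusted P was 1.2e-13 in DESeq2 with independent filtering and 0.0997 in limma-voom. In edgeR without the third Ebf2 E165X/+ library it was 0.042. Adipoq, which encodes the adipocyte hormone adiponectin, had 820 to 1303 CPM in the 6 libraries.

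Some libraries stood apart. The third Ebf2 E165X/+ library held 39020 summed CPM of 8 genes of skeletal muscle, against 661 to 6768 in the others. The first Ebf2+/+ library held 69.5 summed CPM of 5 epithelial genes, against 1.55 to 34.4 in the others. It was also the library with the least RNA of lymphocytes, so that values of the lymphocyte genes are given below with and without it.

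The lymphocyte genes were well measured in all 6 libraries, and none of the 8 was called between the genotypes. Counts of a member in a library ran from 2646 to 15778, so that the counting error in its lowest library was 1.12% to 1.94%, while the highest library exceeded the lowest by 1.47-fold to 1.90-fold. The spread between mice therefore set the precision. EdgeR called 0 of 8 members, beside 0.00918% of all genes tested (3 genes), and 0 of 8 had an unadjusted P under 0.05 in edgeR, beside 4.77% of all genes tested. DESeq2 and limma-voom also gave 0 of 8 members an unadjusted P under 0.05, beside 1583 and 1757 of the 32664 genes tested. All 8 log2 fold changes were above 0, with a median of 0.263, beside a median of 0.0141 over all genes tested. The median was 0.0221 over the 10905 genes with a mean count of at least 1000. Log2 fold changes were above 0 for 52.1% of all genes tested and for 57.1% of those 10905. These shares stand beside such counts below. In bulk RNA, fewer cells of a type and less RNA per cell cannot be told apart.

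**Figure D1:**
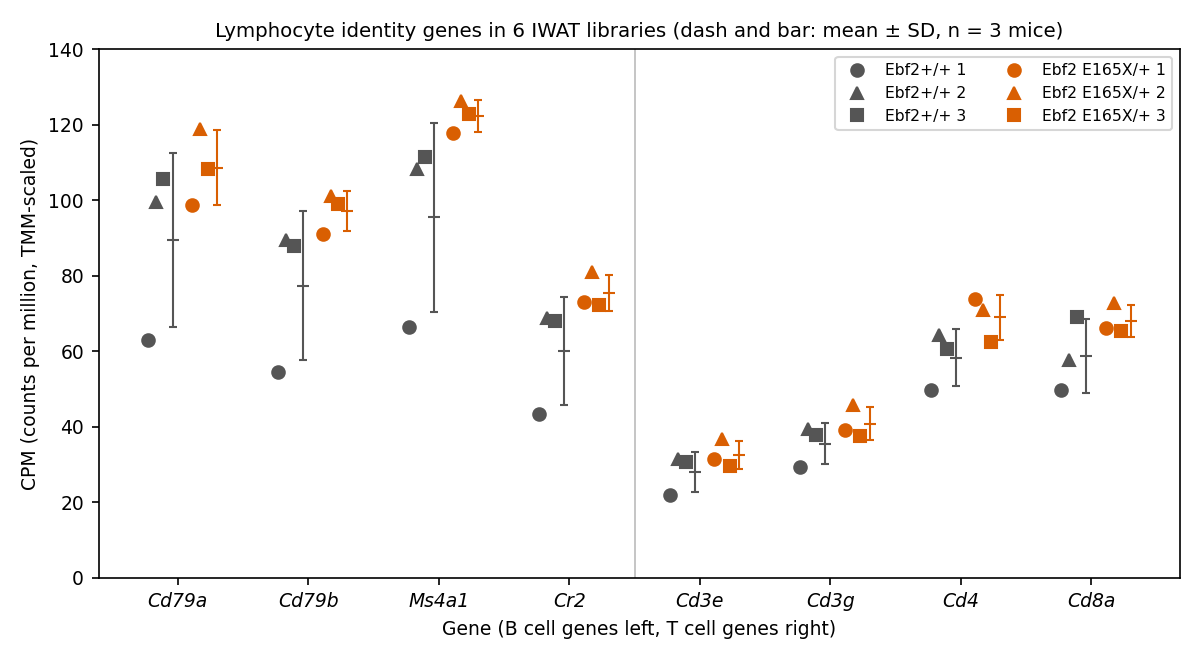
CPM of the 8 lymphocyte genes in each of the 6 IWAT libraries, with B cell genes left and T cell genes right, where each point is 1 mouse and the dash and bar are the mean and SD of 3 mice. The first Ebf2+/+ library is the lowest point for all 8 genes.

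Cd79a (ENSMUSG00000003379, chr7:24897381-24902197, plus strand of GRCm38) encodes Igα, a signalling chain of the B cell receptor. Its level was 63.1, 99.5, and 105.6 CPM in the 3 Ebf2+/+ libraries and 98.8, 118.9, and 108.3 CPM in the 3 Ebf2 E165X/+ libraries. The genotypes overlapped, since the lowest Ebf2 E165X/+ library lay below 2 of the Ebf2+/+ libraries. The means were 89.4 ± 23.0 and 108.7 ± 10.04 CPM (SD, n = 3 mice). On the log2 scale this is a difference of 0.28 (SE 0.19, 95% interval −0.15 to 0.72), with an adjusted P of 0.783 from edgeR, the value that all 8 members share.

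EBF1, the relative of EBF2 that directs B cell development, is known to bind the promoter of Cd79a, so its sequence is shown here. The bases before the start of Cd79a in GENCODE M21, on the plus strand of GRCm38.p6 at chr7:24897247-24897380, are given as RefSeq holds them, with the letters AAGGGAAT in capitals.
Cd79a: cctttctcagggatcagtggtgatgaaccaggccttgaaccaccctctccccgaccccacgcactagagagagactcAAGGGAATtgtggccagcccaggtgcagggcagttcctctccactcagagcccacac
These letters were chosen with this sequence known, and they begin 173 bases before the RefSeq start of the gene. Searched on both strands of the 250 bases before each gene's start, they occur in 1.1% of 32851 RefSeq promoters. Promoters were found for 5 of the 8 members (Cd79a, Cr2, Cd3e, Cd3g, and Cd8a), and of these the Cd79a promoter alone holds the letters. CCCNNGGG, the palindromic core of the EBF site, occurs in 11.8% of promoters, and the octamer ATGCAAAT, a site known from promoters of B cell genes, in 1.6%. None of the 5 promoters holds either of them. A match of letters is a description of the window and does not show that a factor binds there.

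Cd79b (ENSMUSG00000040592, chr11:106311341-106314762, minus strand) encodes Igβ, the partner of Igα in the same receptor. Its level was 54.6, 89.6, and 88.0 CPM in Ebf2+/+ libraries and 91.2, 101.2, and 99.0 CPM in Ebf2 E165X/+ libraries. The genotypes did not overlap, although 2 of the Ebf2+/+ libraries lay just below the lowest Ebf2 E165X/+ library. Cd79b had a log2 fold change of 0.33 (SE 0.18, 95% interval −0.09 to 0.75).

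Ms4a1 (ENSMUSG00000024673, chr19:11249675-11266241, minus strand) encodes CD20, a membrane protein of B cells from the precursor stage until they become plasma cells. Its level was 66.5, 108.3, and 111.5 CPM in Ebf2+/+ libraries and 117.8, 126.3, and 122.9 CPM in Ebf2 E165X/+ libraries. Here too the genotypes did not overlap, and the Ebf2 E165X/+ libraries lay within a narrow range, at 122.4 ± 4.29 CPM against 95.4 ± 25.1 CPM in Ebf2+/+ libraries (SD, n = 3 mice). Its log2 fold change of 0.36 (SE 0.18, 95% interval −0.07 to 0.79) was the highest of the 8 members, and the upper end of its interval equals a 1.73-fold difference. Ms4a1 overlaps the antisense gene 4930526L06Rik, and whether counting used the strand is not given in the sources used here.

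Cr2 (ENSMUSG00000026616, chr1:195136811-195176716, minus strand) encodes the complement receptors CD21 and CD35, which are carried by mature B cells and by follicular dendritic cells, the stromal cells of B cell follicles. Its level was 43.5, 68.7, and 67.9 CPM in Ebf2+/+ libraries and 73.0, 80.9, and 72.2 CPM in Ebf2 E165X/+ libraries. The genotypes did not overlap, by a small margin. Cr2 differed by 0.33 on the log2 scale (SE 0.17, 95% interval −0.07 to 0.72). Cd79b, Ms4a1, and Cr2 were thus the 3 of 8 members that were higher in every Ebf2 E165X/+ library, beside 7.26% of the genes with a mean count of at least 1000.

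Among the T cell members, Cd3e (ENSMUSG00000032093, chr9:44998740-45009627, minus strand) encodes the ε chain that carries the signal of the T cell receptor. Its level was 22.03, 31.4, and 30.8 CPM in Ebf2+/+ libraries and 31.4, 36.7, and 29.7 CPM in Ebf2 E165X/+ libraries. The genotypes overlapped, with the third Ebf2 E165X/+ library below 2 Ebf2+/+ libraries. The log2 fold change was 0.21 (SE 0.15, 95% interval −0.13 to 0.56). Cd3e overlaps the antisense gene Gm48719 and, on its own strand, the unverified transcript Gm48720, so that its counts are uncertain also where counting used the strand. Cd3g (ENSMUSG00000002033, chr9:44969572-44980431, minus strand) encodes the γ chain, which pairs with the ε chain. Its level was 29.25, 39.3, and 37.8 CPM in Ebf2+/+ libraries and 39.0, 45.9, and 37.6 CPM in Ebf2 E165X/+ libraries. The genotypes overlapped in the same manner, and the log2 fold change was 0.20 (SE 0.13, 95% interval −0.10 to 0.51).

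Cd4 (ENSMUSG00000023274, chr6:124864692-124888221, minus strand) encodes the coreceptor of helper T cells, which macrophages and dendritic cells can carry as well. Its level was 49.8, 64.4, and 60.7 CPM in Ebf2+/+ libraries and 73.8, 71.0, and 62.35 CPM in Ebf2 E165X/+ libraries. The genotypes overlapped through 1 library of each. The log2 fold change of 0.24 (SE 0.11) had the 95% interval whose lower end came closest to 0 among the 8 members, −0.02 to 0.51. Cd8a (ENSMUSG00000053977, chr6:71373427-71379173, plus strand) encodes the α chain of the coreceptor of cytotoxic T cells. Its level was 49.7, 57.6, and 69.1 CPM in Ebf2+/+ libraries and 66.1, 72.8, and 65.3 CPM in Ebf2 E165X/+ libraries. The genotypes overlapped, since the third Ebf2+/+ library exceeded 2 Ebf2 E165X/+ libraries. Cd8a had a log2 fold change of 0.21 (SE 0.12, 95% interval −0.07 to 0.49).

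The size of these differences depended most on the first Ebf2+/+ library, which was the lowest of the 6 for all 8 members. Without it, the log2 fold change of Cd79a was 0.069, of Cd79b 0.11, of Ms4a1 0.14, and of Cr2 0.13. That of Cd3e was then 0.051, of Cd3g 0.067, of Cd4 0.13, and of Cd8a 0.089. The differences with all 6 libraries were 1.92 to 4.19 times as large, and the median over the 8 members fell from 0.263 to 0.101. Adjusted P values from edgeR were 0.908 to 0.960 without this library. Without the second Ebf2 E165X/+ library, the log2 fold change of Cd3e was 0.12 and that of Cd3g 0.11. Without the third Ebf2+/+ library, the log2 fold change of Cd8a was 0.32. Leaving out any of the other 5 libraries kept all 8 log2 fold changes above 0, and no member was called.

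**Figure D2:**
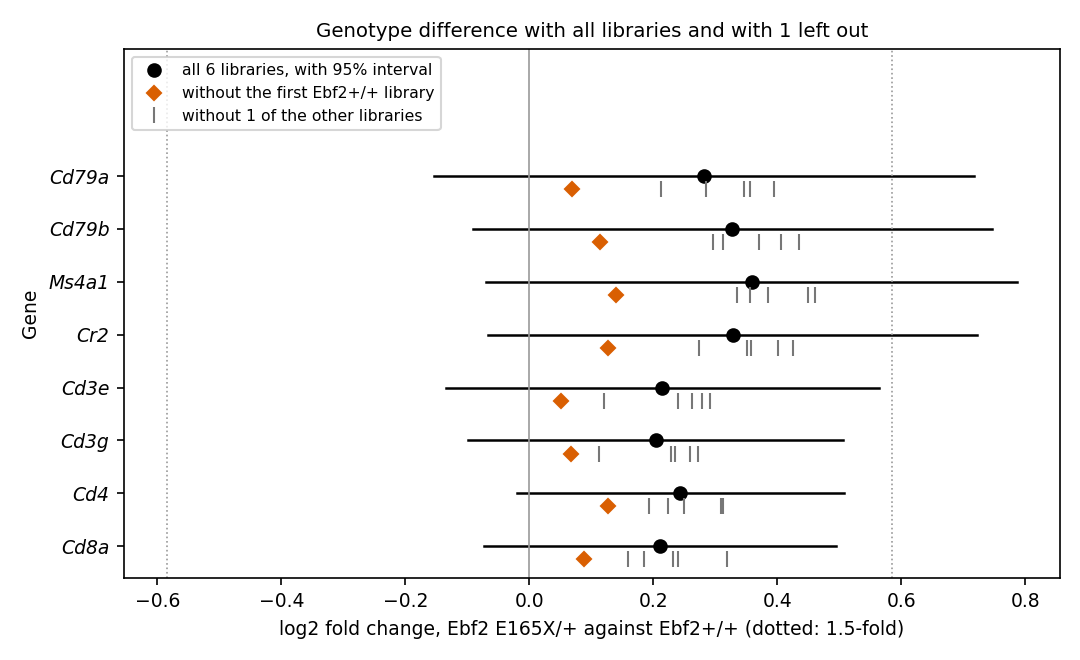
Log2 fold change of each lymphocyte gene (Ebf2 E165X/+ against Ebf2+/+) with all 6 libraries (black point, bar for the 95% interval) and with 1 library left out (diamond for the first Ebf2+/+ library, ticks for the others). All intervals include 0, and the value without the first Ebf2+/+ library is the lowest of the 7 for each gene.

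As shares of all counts, the 4 B cell members took 0.0219%, 0.0361%, and 0.0373% in Ebf2+/+ libraries and 0.0398%, 0.0455%, and 0.0382% in Ebf2 E165X/+ libraries. The means were 0.0318% ± 0.00858 and 0.0411% ± 0.00383 (SD, n = 3 mice), so that the difference of 0.00934 percentage points was close to the SD of the Ebf2+/+ libraries. The 4 T cell members took 0.0145%, 0.0190%, and 0.0199% in Ebf2+/+ libraries and 0.0220%, 0.0241%, and 0.0185% in Ebf2 E165X/+ libraries. Their genotypes overlapped, at 0.0178% ± 0.00288 and 0.0215% ± 0.00282 (SD, n = 3 mice). Without the first Ebf2+/+ library, the difference was 0.00441 percentage points for the B cell members and 0.00207 for the T cell members, and without the second Ebf2 E165X/+ library it was 0.00243 for the T cell members. These shares are given with no test.

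The members moved together from library to library more closely than their levels differed between mice. Cd79a counts were 1.08 to 1.201 times those of Cd79b, its partner chain, although each varied by more than 1.5-fold between libraries. Cd3g counts were 1.23 to 1.33 times those of Cd3e, and Ms4a1 counts 1.53 to 1.70 times those of Cr2. The ratio of Cd4 to Cd8a counts varied more, at 1.002, 1.12, and 0.879 in Ebf2+/+ libraries and 1.12, 0.975, and 0.955 in Ebf2 E165X/+ libraries. Its means of 0.9996 ± 0.1196 and 1.02 ± 0.0883 (SD, n = 3 mice) differed by less than the spread between mice. These ratios describe counts, which depend on the transcript, and not the numbers of cells.

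B cell and T cell members did not vary by the same amount. Summed over the 4 members, B cell counts were 1.51, 1.90, and 1.88 times the T cell counts in Ebf2+/+ libraries and 1.81, 1.89, and 2.06 times in Ebf2 E165X/+ libraries. The first Ebf2+/+ library was the lowest, and the third Ebf2 E165X/+ library the highest. Relative to Ptprc, which encodes CD45, a phosphatase on the surface of all leukocytes, the T cell members varied 1.11-fold (0.404 to 0.450) and the B cell members 1.28-fold (0.680 to 0.872). Ptprc itself had 335, 438, and 471 CPM in Ebf2+/+ libraries and 487, 560, and 462 CPM in Ebf2 E165X/+ libraries, so that its lowest value was in the first Ebf2+/+ library too.

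**Figure D3:**
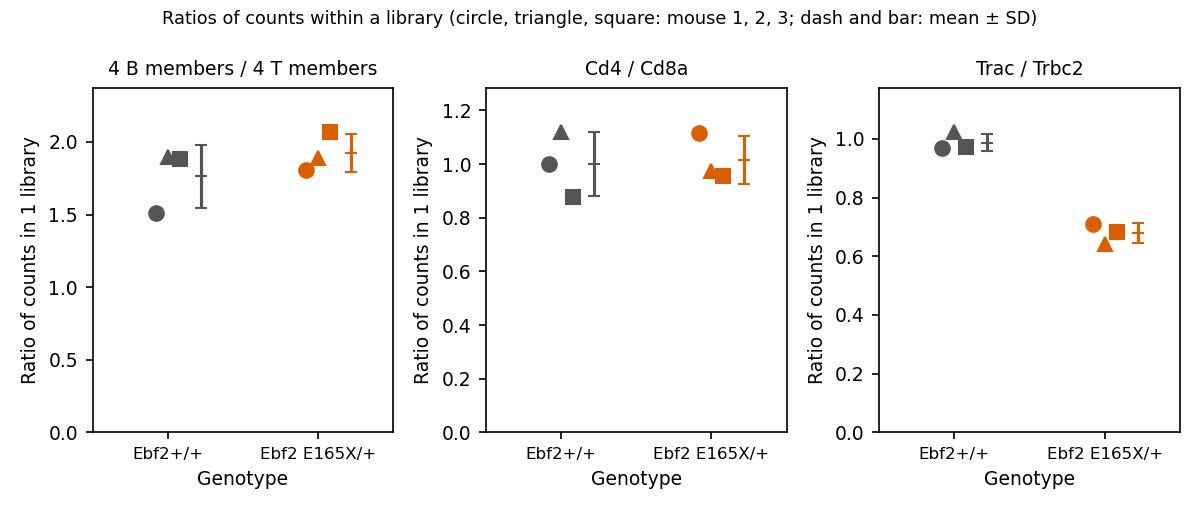
Ratios of counts within each library by genotype: the 4 B cell to the 4 T cell members, Cd4 to Cd8a, and Trac to Trbc2, where each point is 1 mouse and the dash and bar are the mean and SD of 3 mice. The first 2 ratios overlap between genotypes, while Trac to Trbc2 lies between 0.969 and 1.02 in Ebf2+/+ and between 0.641 and 0.711 in Ebf2 E165X/+ libraries.

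Other genes of B cells, chosen for their roles, followed the members. Of 20 such genes, 0 were called in edgeR, 4 had an unadjusted P under 0.05, all higher in Ebf2 E165X/+ libraries (1.68% of all genes tested were), and 9 were higher without overlap, beside 7.26% of the genes with a mean count of at least 1000. Their log2 fold changes ran from 0.20 to 0.46 with a median of 0.290, and all 20 were lowest in the first Ebf2+/+ library. Summed, they had 825, 1202, and 1217 CPM in Ebf2+/+ libraries and 1273, 1427, and 1291 CPM in Ebf2 E165X/+ libraries.

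Of 8 surface proteins of B cells, 0 had an unadjusted P under 0.05 in edgeR and limma-voom and 2 in DESeq2, and Cd37, a tetraspanin, was the most abundant of them. Among 6 signalling genes, Syk, the kinase recruited by Igα and Igβ, was the 1 gene with an unadjusted P under 0.05, at a log2 fold change of 0.30 (SE 0.11). Among 6 regulators of transcription, 3 were below that limit. The log2 fold change was 0.46 (SE 0.16) for Pou2af1, a coactivator of octamer factors in B cells, 0.33 (SE 0.14) for Spib, an ETS factor, and 0.32 (SE 0.14) for Bach2, a repressor that holds off plasma cell differentiation. In edgeR, the adjusted P was 0.783 for all 20 genes. Pax5, which maintains B cell identity, was the most abundant regulator, at 57.1, 86.9, and 85.1 CPM in Ebf2+/+ libraries and 89.1, 99.6, and 88.8 CPM in Ebf2 E165X/+ libraries. Its genotypes did not overlap (log2 fold change 0.28, SE 0.16). Without the first Ebf2+/+ library, the log2 fold changes of Syk, Pou2af1, Spib, Bach2, and Pax5 were 0.19, 0.27, 0.17, 0.16, and 0.090. In that fit, the unadjusted P from edgeR was 0.022 for Pou2af1. It was no longer under 0.05 for Syk (0.065), Spib (0.056), and Bach2 (0.086).

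Most other genes of T cells followed the members as well, with log2 fold changes above 0 for 24 of 27. Of these 27 genes, 0 were called in edgeR, 2 had an unadjusted P under 0.05 with a higher level in Ebf2 E165X/+ libraries, and 1 with a lower level (3.09% of all genes tested were lower). Of the 27, 8 were higher without overlap, beside 7.26% of the genes with a mean count of at least 1000, which Foxp3 and Gata3 of the 27 did not reach. Their median log2 fold change was 0.218, and 24 were lowest in the first Ebf2+/+ library. The 2 higher genes were Cd28, the costimulatory receptor (log2 fold change 0.44, SE 0.15), and Il7r, a chain of the receptor for a survival cytokine (0.31, SE 0.12). Lck, the kinase that starts signalling from the T cell receptor, and Tcf7, a transcription factor of naive T cells, were the most abundant of the signalling genes and of the transcription factors. Their log2 fold changes were 0.27 and 0.23, and adjusted P values over the 27 genes ran from 0.783 to 0.835 in edgeR. Without the first Ebf2+/+ library, the log2 fold changes of Cd28, Il7r, Lck, and Tcf7 were 0.28, 0.16, 0.12, and 0.095. Without the second Ebf2 E165X/+ library, that of Lck was 0.17. In edgeR without the first Ebf2+/+ library, the unadjusted P was 0.027 for Cd28 and 0.075 for Il7r.

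The 3 log2 fold changes below 0 were those of Trac, Gata3, and Zbtb7b, and Trac, which encodes the constant region of the α chain of the T cell receptor, was the one with an unadjusted P under 0.05. Its level was 29.4, 41.4, and 40.1 CPM in Ebf2+/+ libraries and 30.3, 29.1, and 30.4 CPM in Ebf2 E165X/+ libraries. The Ebf2 E165X/+ libraries lay close together, near the first Ebf2+/+ library and below the other two. With all libraries the log2 fold change was −0.31 (SE 0.13), and edgeR gave an adjusted P of 0.783. Without the first Ebf2+/+ library it was −0.46 (SE 0.070), and edgeR gave an adjusted P of 0.659. Trbc2, a constant region of the β chain that pairs with it, had 30.3, 40.5, and 41.3 CPM in Ebf2+/+ libraries and 42.6, 45.4, and 44.4 CPM in Ebf2 E165X/+ libraries. The ratio of Trac to Trbc2 counts was therefore 0.988 ± 0.0297 in Ebf2+/+ and 0.679 ± 0.0352 in Ebf2 E165X/+ libraries (SD, n = 3 mice). This ratio was chosen after its values were seen, and 3 mice against 3 cannot give a P below 0.1 in an exact permutation test. Trac lies at chr14:54220521-54224206 (GRCm38), on the chromosome of Ebf2 and 13009086 bases from it, and whether its position bears on its level was not tested.

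Genes of the lymph node's own stroma and vessels were detected in every library, and their genotype differences were uneven. Of 9 such genes, 8 had log2 fold changes above 0, with a median of 0.217 over the 9, beside 0.213 for the T cell members and 0.328 for the B cell members. From library to library they followed the members less fully, since 4 of the 9 were lowest in the first Ebf2+/+ library. Glycam1, a ligand for lymphocyte homing made by the high endothelial venules of lymph nodes, had 308, 251, and 253 CPM in Ebf2+/+ libraries and 334, 319, and 224 CPM in Ebf2 E165X/+ libraries. Its genotypes overlapped, and the first Ebf2+/+ library was not its lowest. Its log2 fold change was 0.11 (SE 0.17), and it ran from 0.0050 to 0.27 with 1 library left out. Ccl19, a chemokine of the T cell zone, and Coch had the lowest values of the 9, at 0.047 (SE 0.22) and −0.066 (SE 0.20). Ccl21a, a chemokine that guides T cells into the node, had 119, 182, and 140 CPM in Ebf2+/+ libraries and 209, 174, and 186 CPM in Ebf2 E165X/+ libraries (log2 fold change 0.37, SE 0.16), and reads of its near-identical copies may be split between them. Cxcl13, a chemokine that draws B cells to follicles, had 42.0, 51.3, and 59.2 CPM in Ebf2+/+ libraries and 58.2, 60.1, and 59.1 CPM in Ebf2 E165X/+ libraries. Chst4, Fut7, and Madcam1, which act in lymphocyte homing, were present at lower levels, with 6.05 to 7.57, 5.33 to 7.06, and 2.93 to 4.05 CPM. Chst4 (log2 fold change 0.22, SE 0.12) and Tnfsf11 (0.29, SE 0.17) were the 2 of the 9 genes that were higher in every Ebf2 E165X/+ library. That share was 7.26% among genes with a mean count of at least 1000, which neither of them reached. Of the 9 genes listed, 0 had an unadjusted P under 0.05 in edgeR, 1 in DESeq2, and 1 in limma-voom, and none was called by any of the 3. Their sum, of which Glycam1 is the greatest part, was 520, 540, and 527 CPM in Ebf2+/+ libraries and 659, 626, and 535 CPM in Ebf2 E165X/+ libraries. It was thus lowest in the first Ebf2+/+ library too, and it varied 1.27-fold between libraries. The sum of the T cell members varied 1.501-fold and that of the B cell members 1.88-fold.

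**Figure D4:**
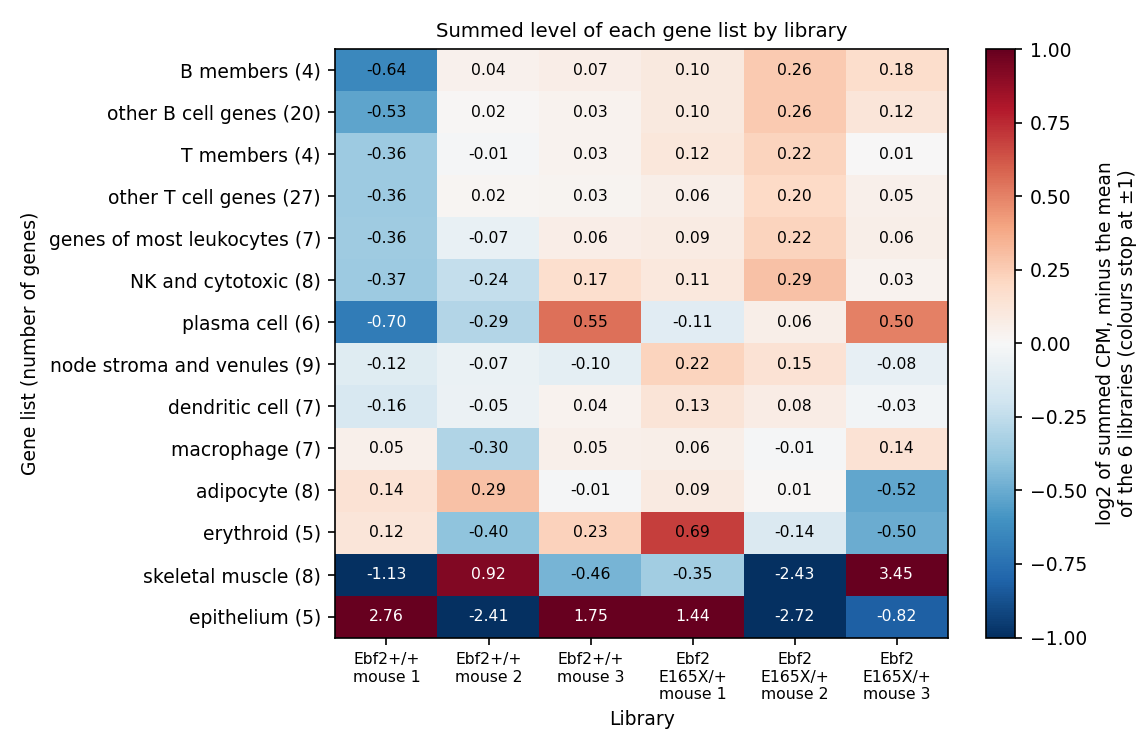
Summed CPM of gene lists, with the lists of other B cell and of other T cell genes each pooled into 1 row, in each library on a log2 scale, as the difference from the mean of the 6 libraries, with the number of genes in parentheses and colours that stop at 1. The plotted rows of B cells, T cells, and most leukocytes are lowest in the first Ebf2+/+ library (−0.64 to −0.36), while skeletal muscle (3.45 in the third Ebf2 E165X/+ library) and epithelium (2.76 in the first Ebf2+/+ library) follow other patterns.

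Markers of other tissues varied between libraries as well. The 8 skeletal muscle genes, with Myh4 as the most abundant, had 1634, 6768, and 2586 summed CPM in Ebf2+/+ libraries and 2801, 661, and 39020 CPM in Ebf2 E165X/+ libraries. The 5 epithelial genes, with Krt5 as the most abundant, had 69.5, 1.93, and 34.4 summed CPM in Ebf2+/+ libraries and 27.7, 1.55, and 5.81 CPM in Ebf2 E165X/+ libraries. Their sum was thus highest in the first Ebf2+/+ library, where the lymphocyte genes were lowest, although 2 of the 5, Krt8 and Krt18, were lowest there. The 8 adipocyte genes, with Fabp4 as the most abundant, had 15660, 17370, and 14080 summed CPM in Ebf2+/+ libraries and 15140, 14290, and 9889 CPM in Ebf2 E165X/+ libraries. All 8 had log2 fold changes below 0, from −0.42 to −0.08 with a median of −0.276, opposite in sign to those of the lymphocyte genes. Their sum was lowest in the third Ebf2 E165X/+ library, which held the most muscle RNA, and without that library the log2 fold change of Fabp4 went from −0.42 to −0.26. The 5 erythroid genes, with Hbb-bs as the most abundant, had 3073, 2135, and 3315 summed CPM in Ebf2+/+ libraries and 4550, 2558, and 2002 CPM in Ebf2 E165X/+ libraries. No gene of these lists was called or had an unadjusted P under 0.05 in edgeR, and none was at 0 in any library. DESeq2 gave 1 adipocyte and 1 epithelial gene an unadjusted P under 0.05. With muscle and mitochondrially encoded genes left out of the edgeR fit, the median log2 fold change of the 8 members was 0.263, as with all genes. The part of muscle, epithelium, adipocytes, and the amount of node in the differences of the lymphocyte genes was not tested.

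The genes outside the members with the pattern most like theirs were ranked by the root mean square difference of centred log2 CPM over the 6 libraries, among 15317 genes with a mean count of at least 100. For the B cell members, they included H2-Ob (0.0213), Treml2 (0.0337), Tnfsf8 (0.0426), and Cd22 (0.0461), beside a median of 0.331 over all genes ranked. H2-Ob encodes a chain of the H2-O protein that modulates antigen loading in B cells, and Cd22 encodes an inhibitory coreceptor of the B cell receptor. For the T cell members, they were Prkcb (0.0187), Coro1a (0.0219), Wdfy4 (0.0223), Il2rg (0.0248), and Dock2 (0.0265), beside a median of 0.233. Coro1a and Dock2 act in the actin cytoskeleton of leukocytes, and Il2rg encodes the common chain of several cytokine receptors. None of these genes was called in edgeR. All genes were ranked over the same 6 libraries, so that the ranking is a description.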

How the data were processed

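The authors deposited expected counts per gene (RSEM) for 6 libraries, 1 per mouse, without scaling for library size. The submitters' processing notes name cutadapt 4.8, FastQC 0.11.8, STAR 2.7.8a, RSEM 1.3.3, MultiQC 1.20, and GRCm38. The study's methods name QuantSeq 3′ mRNA sequencing and ENSEMBL annotation, while the labels name an NEB kit. All values were whole, so that rounding changed none.

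Groups were taken from the labels. Genes counted at least once in some library were tested with edgeR 4.0.16 (TMM, glmQLFit, glmQLFTest, genotype as the only term) in R 4.3.3, with Benjamini-Hochberg adjustment over 32664 genes. Intervals of log2 fold changes are 95% intervals that include both the spread between mice and counting error. Total counts of at least 106820505 per library leave the number of mice as the limit on precision. Logarithms of CPM used a prior count of 2. On simulated counts with 200 of 31640 genes changed by a log2 fold change of 2, edgeR recovered 184, DESeq2 195, and limma-voom 173, and they called 43, 103, and 19 unchanged genes.

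The members, the 17 lists of 117 other genes, and the tests were chosen with earlier results of these data known. The genes named are the members, every list gene with an unadjusted P under 0.05, the gene of each list with the highest mean count, Ebf2, and the 5 genes most like the B cell and the T cell members, of which some are not reported here. Other node, adipocyte, and T cell receptor genes were named from the lists as markers of their tissue, and Trbc2 with Trac after values were seen. Positions and overlaps came from GENCODE M21 (GRCm38), and promoters from RefSeq (GRCm38.p6). Alternatives were DESeq2 1.42.0 with and without independent filtering, limma-voom (limma 3.58.1), DESeq2 size factors in edgeR, filterByExpr, at least 10 counts in every library, muscle and mitochondrially encoded genes left out, a replicate block, each library left out, and for shares other denominators. Ratios and ranks used Python 3.11.15, numpy 2.4.6, pandas 2.3.3, and scipy 1.17.1, and plots matplotlib 3.10.9.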

Additional observations from a re-analysis of the deposited data

How the results depend on the processing

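Under 14 alternatives, the 8 members gave 112 log2 fold changes, all above 0 and none called, from 0.051 to 0.46. Of these, 5 had an unadjusted P under 0.05, and all came from the replicate block or from fits without 1 library. Over all genes, 1281 of 32664 had such a P with the replicate block and 1284 of 32285 without the second Ebf2+/+ library. Without the third Ebf2+/+ library it was 1735 of 32133, and without the third Ebf2 E165X/+ library 1711 of 32108. DESeq2 gave the members adjusted P values from 0.673 to 0.798 with independent filtering, and limma-voom 0.863 to 0.864. The number of genes called in the whole table was 3 in edgeR, 98 in DESeq2 with independent filtering, and 92 without it, and 0 of the 8 members and 0 genes of the 17 lists were among them or among those called by limma-voom. With 1 library left out, the number of genes called by edgeR in the whole table ran from 1 (without the second Ebf2+/+ library) to 11 (without the third Ebf2 E165X/+ library). The cause was not tested. With 1 library left out, the log2 fold change of Irf4 ran from −0.588 to 0.439, of Zbtb46 from −0.0224 to 0.108, of Myh4 from −1.31 to 2.62, and of Hbb-bs from −0.348 to 0.319, so that none of these 4 has a stable direction. Libraries with the same replicate number did not deviate together (correlations of 0.153, −0.278, and −0.162 for numbers 1, 2, and 3). With a replicate block in edgeR, 2 genes were called and 0 members. The members then had log2 fold changes of 0.21 to 0.40 and an adjusted P of 0.941. Cd79b and Ms4a1, 2 of the 8, had an unadjusted P under 0.05 there, beside 1281 of the 32664 genes tested (456 of them higher). The differences in the shares of counts were 0.00813 to 0.00973 percentage points for the B cell members and 0.00299 to 0.00379 for the T cell members under the other denominators. With 1 library left out they ran from 0.00441 to 0.0121 and from 0.00207 to 0.00522, lowest without the first Ebf2+/+ library.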

Other observations

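Genes of plasma cells, the antibody-secreting descendants of B cells, had log2 fold changes above 0 for 4 of 6, with a median of 0.474. The 4 were Jchain, Mzb1, Tnfrsf17 (0.53), and Derl3 (0.41), and the 2 below 0 were Prdm1 and Irf4. Jchain, which joins the units of secreted IgM and IgA, had 20.6, 34.5, and 21.8 CPM in Ebf2+/+ libraries and 30.5, 67.6, and 81.5 CPM in Ebf2 E165X/+ libraries. The genotypes overlapped through 1 library of each, and the log2 fold change was 1.22 (SE 0.36). Mzb1, a chaperone of immunoglobulin assembly, had a log2 fold change of 0.54 (SE 0.22). Prdm1, which encodes the plasma cell regulator BLIMP1 and is also active in other cells, was lower in every Ebf2 E165X/+ library, at 5.57 ± 1.01 against 7.27 ± 0.233 CPM (SD, n = 3 mice). Its log2 fold change was −0.39 (SE 0.16). These 3 genes had an unadjusted P under 0.05 in edgeR, beside 4.77% of all genes tested, and an adjusted P of 0.783, and without the first Ebf2+/+ library their log2 fold changes were 1.07, 0.38, and −0.42. Without the third Ebf2 E165X/+ library, that of Mzb1 was 0.33. In edgeR without the first Ebf2+/+ library, the unadjusted P was 0.044 for Jchain, 0.145 for Mzb1, and 0.061 for Prdm1. Irf4, a regulator of plasma cells and of some T and dendritic cells, was the most abundant of the 6 plasma cell genes, and 156.5 CPM in the third Ebf2+/+ library stood beside 47.0 to 85.3 CPM in the other libraries.

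Most lists of other leukocytes were also lowest in the first Ebf2+/+ library, while the macrophage list was not. The 7 macrophage genes, with Lyz2 as the most abundant, had 1720, 1350, and 1725 summed CPM in Ebf2+/+ libraries and 1733, 1651, and 1836 CPM in Ebf2 E165X/+ libraries, and none of the 7 was lowest in the first Ebf2+/+ library. The 7 dendritic cell genes, with Zbtb46 as the most abundant, ranged from 96.0 to 117 summed CPM, and 3 of them were lowest in the first Ebf2+/+ library. The 8 genes of natural killer and cytotoxic cells, with Nkg7 as the most abundant, ranged from 33.7 to 53.2 summed CPM, and 6 of them were lowest there. All 7 genes of most leukocytes were lowest there as well. Log2 fold changes were above 0 for all 7 macrophage genes (median 0.112) and all 7 dendritic cell genes (0.125), beside 52.1% of all genes tested. They were also above 0 for 7 of the 8 natural killer and cytotoxic genes (0.258) and all 7 genes of most leukocytes (0.238). In these 4 lists, 0 genes were called and 0 had an unadjusted P under 0.05 in edgeR, while DESeq2 gave 1 natural killer gene and limma-voom 2 genes of most leukocytes such a P.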
